A study of Homo sapiens with 8 samples.

Results

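Matricellular proteins are secreted into the extracellular matrix but act mainly as signals and adaptors rather than as load-bearing fibers. The genes described here were 9 such genes or close matrix relatives (TNC, THBS1, THBS2, POSTN, SPARC, SPP1, CTGF, CYR61 and FBN1) together with TGM2, a matrix cross-linking enzyme. They were taken as a named list of 10 genes out of the 25369 gene symbols in the table, and all 10 had a row. RNA-seq was performed on MCF10A cells, a spontaneously immortalized line of human mammary epithelial cells, at passages 8 to 15 and after 7 days of culture inside a gel. Soft IPN and stiff IPN were interpenetrating networks of alginate with reconstituted basement membrane (rBM), soft col:rBM was a soft gel of type 1 collagen (col-1) with rBM, and stiff col was a stiff col-1 gel. Each of the 4 gels had 2 libraries, replicate 1 and replicate 2, made in independent trials. The samples are 1 established cell line and not primary tissue, and the labels list no treatment other than the gel.

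Values are normalized counts, that is, reads per gene divided by 1 scaling factor for each library and rounded to whole numbers. From the estimated factors the libraries held about 13065615 to 18587739 reads counted in genes (or read pairs, which the values cannot tell apart), and 3 reads, taken as the floor of detection, were worth 2.41 to 3.73 normalized counts. Fold changes are on the scale of log2(value + 1), which understates changes at low values. A gene was tested when its value was at least 10 in at least 2 libraries, and 8 of the 10 genes were among the 13369 genes that passed, with THBS2 and SPP1 below it. A gene was called at an adjusted p under 0.05 in a limma fit to the 8 libraries that estimated a mean for each gel. Because the replicate numbers marked libraries that deviated together, the same fit with the trial as a block is given beside it where the call differs.

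Matricellular proteins are produced in bursts during development, wound repair and tumor growth, and most are scarce in resting adult tissue. They bind integrins, growth factors and structural fibers, and several are widely used as readouts of mechanical tension. In the mammary gland they are made largely by stromal cells, while epithelial cells contribute part of them during ductal growth and in carcinoma. In bulk RNA of this kind, fewer cells that make a transcript and less transcript in each cell cannot be told apart.

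On a scale of normalized count per kb of exon, TGM2 had the highest mean level over the 8 libraries at 345, followed by CYR61 at 152, SPARC at 149 and THBS1 at 121. CTGF at 43.4, TNC at 29.2, FBN1 at 27.5 and POSTN at 17.7 formed a lower group. SPP1 at 2.32 and THBS2 at 0.767 per kb were near the floor. This full order held in none of the gels taken alone. FBN1 was above CTGF and TNC in soft IPN, at 28.0 against 22.5 and 13.6. It was above both in soft col:rBM (32.6 against 16.7 and 9.35) and stiff col (39.6 against 37.2 and 16.5). SPARC was above CYR61 in soft IPN (119 against 113) and stiff col (294 against 146). In stiff IPN, TGM2 at a mean of 143 per kb was below CYR61 at 203 and THBS1 at 178. SPARC there, at 63.7, was below CTGF at 97.3 and TNC at 77.2. TGM2 was still highest in replicate 1 of that gel, at 251, and fell to 34.8 in replicate 2. The spread between libraries within a gene was wide, from 2.88-fold between the lowest and highest library for CYR61 to 34.9-fold for TNC.

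**Figure D1:**
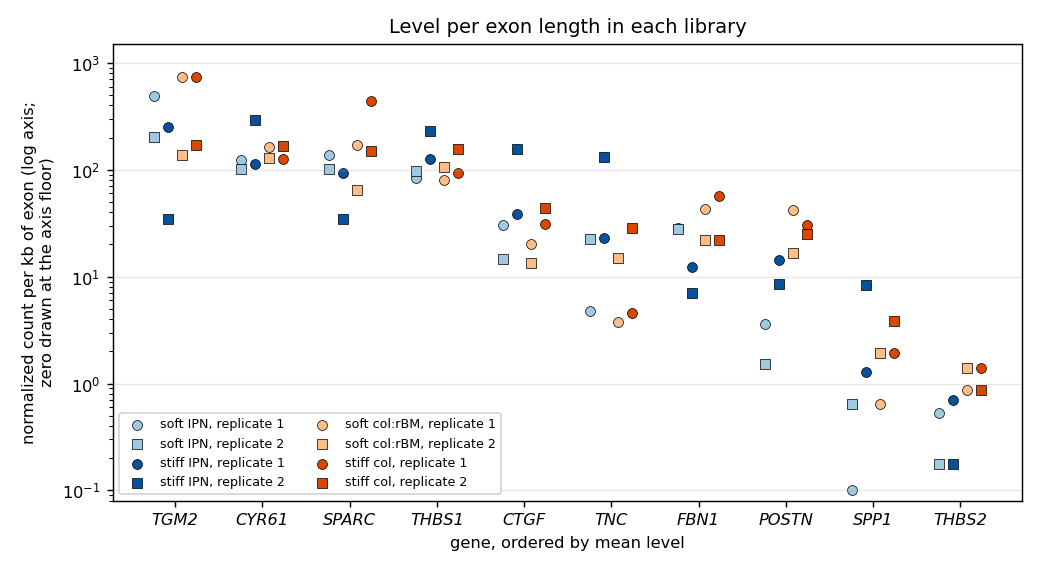
Normalized count per kb of exon on a log axis for the 10 genes in each of the 8 libraries, with color for the gel, circles for replicate 1 and squares for replicate 2. Over all libraries TGM2 had the highest mean level at 345 per kb, though in stiff IPN its mean of 143 was below those of CYR61 and THBS1, and SPP1 and THBS2 lay lowest at 2.32 and 0.767 per kb.

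The start regions of these genes are shown because several of the genes are classical targets of TEAD factors, the DNA-binding partners of YAP, and because they moved in opposite directions between gels. RefSeq promoter windows of 300 bases, 250 before and 50 after the gene start on GRCh38.p14, were matched for 8 of the 10 genes. No window was matched for CYR61 and TGM2 in the set used here. Both strands were searched for the TEAD letters GGAATG, the AP-1 letters TGANTCA and the CArG box, and no match overlapped another. The TEAD letters were found in 5 of the 8 windows (THBS1, THBS2, SPARC, CTGF and FBN1), against 14.0% of 35116 promoter windows of the same length. CTGF held 3 matches and THBS2 held 2. The AP-1 letters were found in 1 of the 8, POSTN, against 7.71% of windows, and the CArG box in 0 of the 8, against 1.29%. In the 5 windows below, written 5′ to 3′ on the strand of the gene, capitals mark these matches. CTGF lies on the minus strand at chr6:131951323-131951622, THBS1 on the plus strand at chr15:39580829-39581128, SPARC on the minus strand at chr5:151686866-151687165, FBN1 on the minus strand at chr15:48644921-48645220 and POSTN on the minus strand at chr13:37598719-37599018.
CTGF: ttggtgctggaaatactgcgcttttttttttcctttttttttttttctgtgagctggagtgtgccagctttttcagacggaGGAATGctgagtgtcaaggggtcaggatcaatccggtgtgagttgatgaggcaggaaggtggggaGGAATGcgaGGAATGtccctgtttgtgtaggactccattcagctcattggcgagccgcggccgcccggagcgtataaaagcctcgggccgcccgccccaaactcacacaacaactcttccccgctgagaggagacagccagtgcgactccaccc
THBS1: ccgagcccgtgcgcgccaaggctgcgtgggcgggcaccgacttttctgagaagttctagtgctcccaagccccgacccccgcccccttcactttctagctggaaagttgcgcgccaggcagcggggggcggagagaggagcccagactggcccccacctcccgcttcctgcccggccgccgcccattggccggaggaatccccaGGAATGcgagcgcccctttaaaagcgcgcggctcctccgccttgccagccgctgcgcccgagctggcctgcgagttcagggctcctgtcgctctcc
SPARC: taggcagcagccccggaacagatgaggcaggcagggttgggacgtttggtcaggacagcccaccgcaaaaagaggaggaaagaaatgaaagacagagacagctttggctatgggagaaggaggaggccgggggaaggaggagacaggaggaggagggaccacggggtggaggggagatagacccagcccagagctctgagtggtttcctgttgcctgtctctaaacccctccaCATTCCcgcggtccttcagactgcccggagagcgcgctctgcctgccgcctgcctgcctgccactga
FBN1: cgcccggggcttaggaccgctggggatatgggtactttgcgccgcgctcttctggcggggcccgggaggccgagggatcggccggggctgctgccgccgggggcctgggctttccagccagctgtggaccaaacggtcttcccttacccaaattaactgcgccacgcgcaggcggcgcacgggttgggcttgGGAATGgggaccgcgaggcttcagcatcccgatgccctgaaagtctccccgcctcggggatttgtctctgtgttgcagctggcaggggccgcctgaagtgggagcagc
POSTN: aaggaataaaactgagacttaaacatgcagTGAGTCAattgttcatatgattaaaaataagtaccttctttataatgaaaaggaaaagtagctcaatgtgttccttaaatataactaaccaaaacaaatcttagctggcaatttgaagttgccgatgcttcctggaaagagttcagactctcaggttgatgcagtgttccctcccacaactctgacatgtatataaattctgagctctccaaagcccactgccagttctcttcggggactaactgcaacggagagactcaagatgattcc
TEAD letters lay in genes with their highest mean in stiff IPN (THBS1 and CTGF) and in genes with their lowest mean there (SPARC and FBN1), and a match is a description of letters, not of binding.

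**Figure D2:**
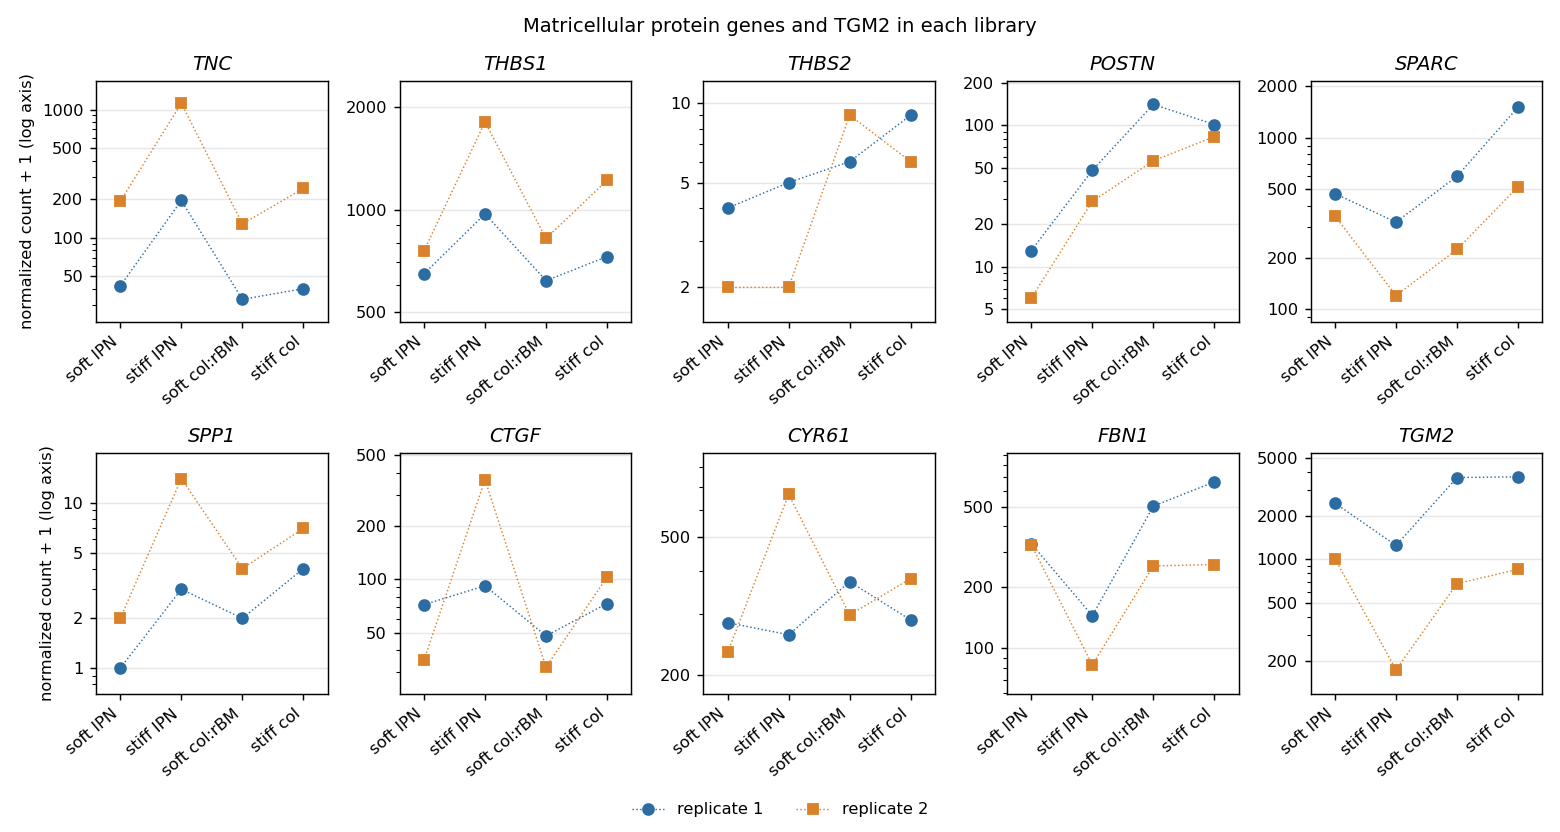
Normalized count plus 1, on a log axis set for each panel, of the 10 genes in the 4 gels, with blue circles for replicate 1 and orange squares for replicate 2 and dotted lines that join libraries of the same replicate. TNC peaked in stiff IPN in both replicates, at 194 and 1118 normalized counts, and FBN1 was lowest there, at 144 and 82.

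The replicates differed in the same direction in all 4 gels for 6 of the 8 genes tested, against 44.5% of all genes (5949 of 13369), and this is described before the gels are compared. In all 4 gels TNC was higher in replicate 2, by 1.96 to 2.60 on the log2 scale, and THBS1 was higher in replicate 2 by 0.22 to 0.90. POSTN, SPARC, FBN1 and TGM2 were lower in replicate 2 in all 4 gels, though FBN1 in soft IPN by a difference of only -0.02 (327 and 323 normalized counts), and the difference for TGM2 ran from -2.84 in stiff IPN to -1.27 in soft IPN. CTGF and CYR61 went both ways, with CTGF lower by 1.04 log2 units in replicate 2 of soft IPN (a difference of -1.04) and higher by 1.99 in replicate 2 of stiff IPN. For comparison, the median absolute difference between the replicates over all genes tested was 0.33 to 0.41 log2 units. For TNC and TGM2 the difference between the replicates was of the same order as their changes in the 4 comparisons between gels made below, up to 2.38 for TNC and 1.93 for TGM2 in size.

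**Figure D3:**
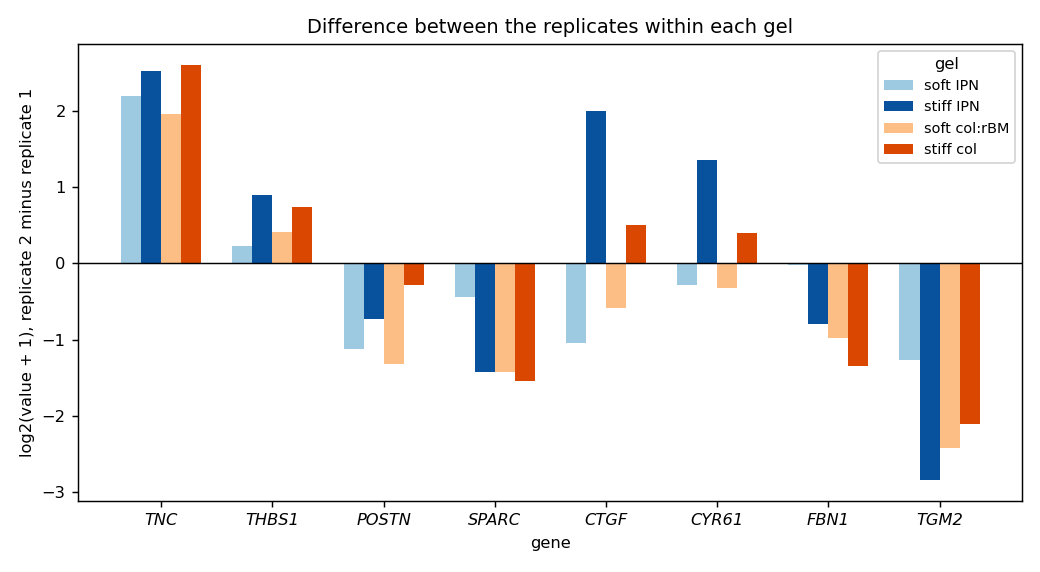
Replicate 2 minus replicate 1 on the log2(value + 1) scale for the 8 genes tested, with 1 bar for each gel. TNC and THBS1 were above 0 in all 4 gels, POSTN, SPARC, FBN1 and TGM2 were below 0 in all 4, and CTGF and CYR61 had bars on both sides.

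TNC encodes tenascin-C, a hexameric glycoprotein that weakens cell adhesion to fibronectin and is deposited around remodeling and malignant epithelium (hg19 chr9:117781854-117880486, minus strand). Soft IPN libraries had 41 and 191 normalized counts of TNC in replicates 1 and 2, and stiff IPN libraries had 194 and 1118. Soft col:rBM libraries had 32 and 127, and stiff col libraries had 39 and 241. Stiff IPN was highest in each replicate taken alone, and soft col:rBM was lowest in each. The gel means were 656 ± 653 in stiff IPN, 140 ± 143 in stiff col, 116 ± 106 in soft IPN and 79.5 ± 67.2 in soft col:rBM (SD, n = 2), and neighboring gels in this order overlapped. The lowest stiff IPN library, 194, was just above the highest soft IPN library, 191. TNC was 2.38 log2 units higher in stiff than in soft IPN, by 2.22 in replicate 1 and 2.54 in replicate 2, and limma called it with the trial as a block (SE 0.24, adjusted p = 0.00816) but not without it (SE 1.24, adjusted p = 0.569). Against stiff IPN it was lower in stiff col by a log2 change of -2.25, nearly equal within the replicates (-2.29 and -2.21), and again the limma call was made with the block (adjusted p = 0.00781) and not without it (adjusted p = 0.818). With the block, the IPN call was lost without soft IPN replicate 2 and the collagen call without stiff col replicate 1, with adjusted p ranging from 0.00115 to 0.235 and from 0.00207 to 0.0605 over 16 alternatives each. Without the block, the log2 change between the IPNs was 1.28 without soft IPN replicate 1, and 3.64 and 1.12 when stiff IPN lost replicate 1 or replicate 2, in that order. That of stiff col against stiff IPN was -3.51 and -0.99 when replicates 1 and 2 of stiff IPN were left out in turn, and -0.95 and -3.55 when those of stiff col were.

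THBS1 and THBS2 encode thrombospondins 1 and 2, trimeric calcium-binding proteins that restrain angiogenesis, and thrombospondin 1 also activates latent TGF-beta. THBS1 (chr15:39873280-39891667, plus strand) had 647 and 756 normalized counts in soft IPN and 971 and 1808 in stiff IPN. It had 618 and 822 in soft col:rBM and 727 and 1219 in stiff col. As with TNC, stiff IPN was highest in each replicate, and stiff col came next in each. The IPN libraries did not overlap, with means of 1390 ± 592 in stiff and 702 ± 77.1 in soft IPN (SD, n = 2). The log2 change in stiff against soft IPN was 0.92, with 0.58 in replicate 1 and 1.26 in replicate 2, and limma gave an adjusted p of 0.0406 with the trial as a block and 0.518 without it. With the block, this call was held under 9 of 16 alternatives, with adjusted p from 0.00598 to 0.452, and was lost without either soft IPN library, without stiff IPN replicate 2 and without either stiff col library. With no block the change was 0.47 without stiff IPN replicate 2. The exons of THBS1 share 236 bases with FSIP1 on the opposite strand, a gene with at most 212 normalized counts, and the libraries did not mark strand.

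THBS2 (chr6:169615875-169654145, minus strand) was near the floor. Its values were 3 and 1 in soft IPN, 4 and 1 in stiff IPN, 5 and 8 in soft col:rBM and 8 and 5 in stiff col. The col-1 gels were above the IPNs in each replicate, and 5 of the 8 libraries exceeded the value of 3 reads. With so few reads no fold change is given. Its exons share 2244 bases with an antisense RNA gene, so that the reads of the pair cannot be told apart.

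POSTN encodes periostin, a fasciclin-domain protein that binds col-1 and integrins and promotes collagen fibril assembly (chr13:38136720-38172981, minus strand). Soft IPN libraries had 12 and 5 normalized counts, the lowest of any gel, and stiff IPN libraries had 47 and 28. The soft IPN values stood for an estimated 12 and 4 reads, the latter just above the floor of 3 reads. The size of each change against soft IPN rests on these few reads. Soft col:rBM libraries had 139 and 55, and stiff col libraries had 100 and 82. The order of soft IPN, then stiff IPN, then the col-1 gels held in both replicates, and the libraries of soft IPN, stiff IPN and stiff col were separate from each other while stiff col and soft col:rBM overlapped. Against soft IPN, POSTN was 3.33 log2 units higher in soft col:rBM, with 3.43 and 3.22 within the replicates, the largest change in size among the 8 genes in the 4 comparisons between gels when all 8 libraries were fitted. Its limma adjusted p with the block was 0.049998, barely under the threshold, and 1.0 without the block. That call was held under 4 of 16 alternatives with the block, with adjusted p from 0.00156 to 0.697, and was lost without either library of soft IPN or soft col:rBM, without stiff col replicate 2, and in all but 1 of the 8 alternatives that left out no single library. In stiff against soft IPN it was 2.08 higher (1.88 and 2.27 within the replicates, limma adjusted p = 0.0310 with the block and 0.491 without). This call was held under 11 of 16 alternatives, with adjusted p from 0.0126 to 0.352, and was lost without either soft IPN library. The difference of 1.30 between stiff col and stiff IPN passed in neither fit (adjusted p = 0.101 with the block and 0.789 without).

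SPARC encodes osteonectin, a collagen-binding protein that acts as a chaperone for collagen and limits cell spreading (chr5:151040657-151066536, minus strand). It had 471 and 348 normalized counts in soft IPN and 321 and 119 in stiff IPN. It had 595 and 222 in soft col:rBM and 1510 and 517 in stiff col. Stiff col was highest and stiff IPN lowest in each replicate, and both stiff col libraries lay above both libraries of each IPN. SPARC was 2.17 log2 units higher in stiff col than in stiff IPN, with 2.23 and 2.11 within the replicates, and limma gave an adjusted p of 0.0112 with the block and 0.602 without it. With the block, 13 of 16 alternatives held the call, with adjusted p from 0.00134 to 0.0854, and it was lost without stiff col replicate 1. Without that library and without the block the change was 1.40. Between stiff col and soft col:rBM it was higher by 1.28 (1.34 and 1.22 within the replicates), which passed in neither fit (adjusted p = 0.579 with the block and 1.0 without), and with no block this change was 0.51 without stiff col replicate 1 and 2.05 without stiff col replicate 2. The change from soft to stiff IPN, -1.05, was also not called (adjusted p = 0.0680 with the block and 0.629 without), and with no block it was -1.76 and -0.33 when replicates 1 and 2 of stiff IPN were left out in turn.

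FBN1 encodes fibrillin-1, the backbone of the microfibrils that carry elastin and store latent TGF-beta (chr15:48700510-48937918, minus strand). The soft IPN libraries had 327 and 323 normalized counts and the stiff IPN libraries 144 and 82. The soft col:rBM libraries had 502 and 254 and the stiff col libraries 661 and 258. Stiff IPN was lowest in each replicate and did not overlap with any other gel, while the other three gels overlapped. In stiff IPN it was lower than in soft IPN by a log2 change of -1.57 (-1.18 and -1.96 within the replicates, limma adjusted p = 0.0363 with the block and 0.499 without). In stiff col it was 1.92 higher than in stiff IPN (2.19 and 1.64 within the replicates, limma adjusted p = 0.0218 with the block and 0.506 without). Both calls with the block were held under 13 of 16 alternatives, with adjusted p from 0.0198 to 0.374 and from 0.00714 to 0.173. The IPN call was lost without soft IPN replicate 2 and the collagen call without stiff col replicate 1, where the change with no block was 1.24.

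TGM2 encodes tissue transglutaminase, which cross-links fibronectin, collagen and other matrix proteins and also serves as an integrin co-receptor (chr20:36755787-36794980, minus strand). Soft IPN libraries had 2434 and 1010 normalized counts, and stiff IPN libraries had 1245 and 173. Soft col:rBM libraries had 3651 and 680, and stiff col libraries had 3690 and 854. Like FBN1, TGM2 was lowest in stiff IPN in each replicate, but the replicate difference was so large that no pair of gels was free of overlap. The log2 change in stiff against soft IPN was -1.75, with -0.97 in replicate 1 and -2.54 in replicate 2, and limma called it with the block (adjusted p = 0.0338) and not without it (adjusted p = 0.634). In stiff col it was 1.93 higher than in stiff IPN (1.57 and 2.30 within the replicates, limma adjusted p = 0.0253 with the block and 0.826 without). With the block the IPN call was held under 10 of 16 alternatives and the collagen call under 12 of 16, with adjusted p from 0.00353 to 0.352 and from 0.00238 to 0.222. The IPN call was lost without soft IPN replicate 2, where the change was -1.16, and both calls were lost without either stiff col library. With no block, the change between the IPNs was -1.12 without soft IPN replicate 1, and -3.17 and -0.33 when stiff IPN lost replicate 1 or replicate 2, in that order. That of stiff col against stiff IPN was 3.35 and 0.51 when replicates 1 and 2 of stiff IPN were left out in turn, and 0.88 and 2.99 when those of stiff col were. TGM2 exons share 396 bases with RPRD1B on the opposite strand, which reached 985 normalized counts, and without strand the reads of the pair cannot be told apart there.

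CTGF and CYR61 encode CCN2 and CCN1, cysteine-rich integrin ligands and widely used target genes of YAP and TEAD. CTGF (chr6:132269316-132272512, minus strand), whose window holds 3 matches to the TEAD letters, had 71 and 34 normalized counts in soft IPN and 91 and 364 in stiff IPN. It had 47 and 31 in soft col:rBM and 72 and 102 in stiff col. The order from soft col:rBM through soft IPN and stiff col to stiff IPN was the same in both replicates, yet its size was not, since the stiff IPN library of replicate 2 stood far above the rest. CTGF was 1.87 log2 units higher in stiff than in soft IPN, with 0.35 in replicate 1 and 3.38 in replicate 2, and limma called it in neither fit (adjusted p = 0.123 with the block and 0.501 without). Without stiff IPN replicate 2 the change was 0.87 in the fit with no block, and without stiff IPN replicate 1 it was 3.05 with the block and was called. Stiff col and soft col:rBM did not overlap for CTGF, with a log2 change of 1.15 (0.60 and 1.69 within the replicates, limma adjusted p = 1.0 in both fits), and with the block this fell to 0.61 without soft col:rBM replicate 2.

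CYR61 (chr1:86046444-86050272, plus strand) had 282 and 231 normalized counts in soft IPN and 260 and 666 in stiff IPN. It had 371 and 297 in soft col:rBM and 287 and 379 in stiff col. The highest library was stiff IPN replicate 2, as for CTGF, but in replicate 1 stiff IPN was the lowest of the 4 gels. Accordingly the change from soft to stiff IPN was -0.12 in replicate 1 and 1.52 in replicate 2, with a mean of 0.70 (SE 0.43) that passed in neither fit (limma adjusted p = 0.279 with the block and 0.605 without). With the block and without stiff IPN replicate 1 the change was 1.41 and was called. Stiff col and soft col:rBM had nearly equal means of 333 ± 65.1 and 334 ± 52.3 (SD, n = 2), with a log2 change of -0.01 and a 95% interval from -1.01 to 0.99.

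SPP1 encodes osteopontin, a phosphorylated ligand of integrins and CD44 (chr4:88896819-88904684, plus strand). Its values were 0 and 1 normalized counts in soft IPN, 2 and 13 in stiff IPN, 1 and 3 in soft col:rBM and 3 and 6 in stiff col. Soft IPN was lowest in both replicates, and 2 of the 8 libraries (replicate 2 of stiff IPN and of stiff col) exceeded 3 reads. At this depth no difference between the gels could be measured, and the gene was not tested.

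**Figure D4:**
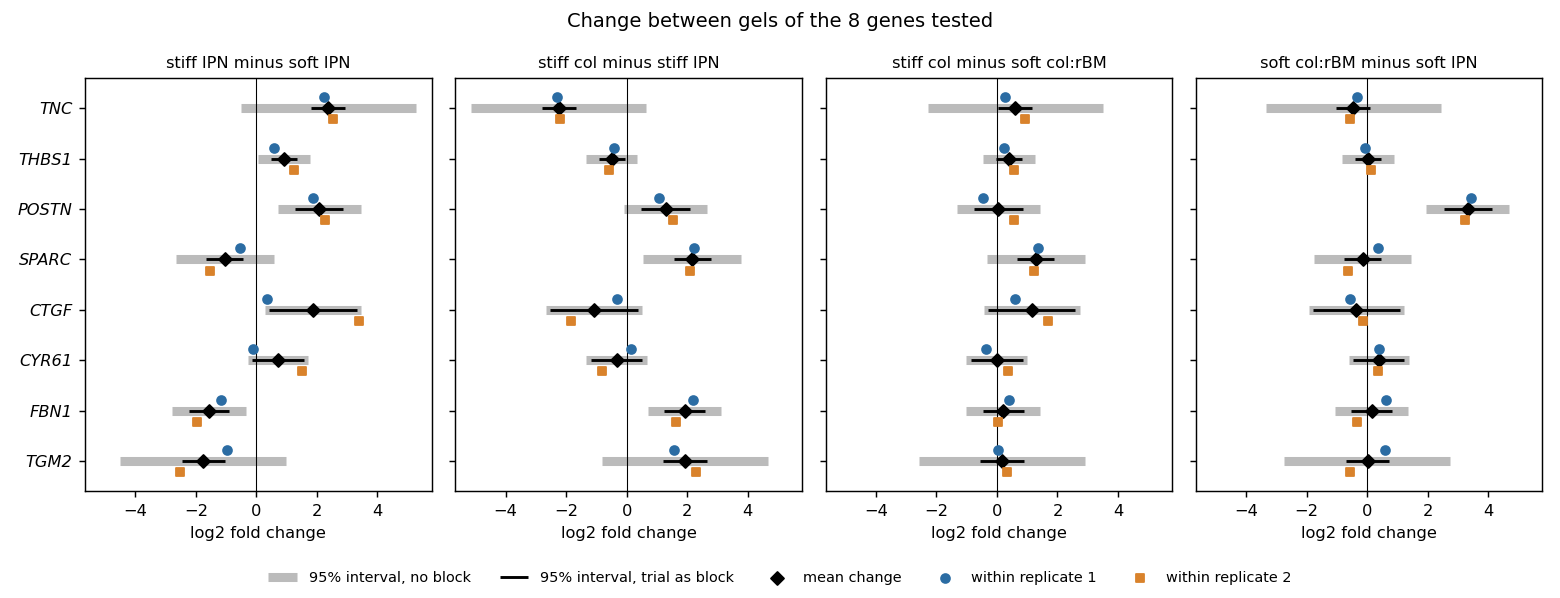
Log2 fold change on the log2(value + 1) scale of the 8 genes tested in 4 comparisons between gels. Diamonds are the mean change, grey bars the 95% interval with no block, black bars the 95% interval with the trial as a block, and circles and squares the change within replicates 1 and 2. For TNC in stiff against soft IPN, the change of 2.38 was 2.22 and 2.54 within the replicates, and the grey interval crossed 0.

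Stiff IPN was compared with soft IPN to describe the change with stiffness in a basement membrane matrix. The paper stiffened its IPNs with calcium, which cross-links alginate, so stiffness and calcium cannot be told apart in this comparison. Among the 8 genes tested, 3 changed upward (TNC, POSTN and THBS1) and 2 downward (TGM2 and FBN1) in the limma fit with the trial as a block, 5 of 8 where 3.82% of all genes tested were called (511 of 13369). Without the block limma called 0 of the 8 genes and 0.00% of all genes, and an unadjusted p under 0.05 was reached by 4 of the 8 and by 1245 of all genes. For 6 of the 8 genes the stiff and soft IPN libraries were free of overlap, against 41.9% of all genes tested. The median log2 change of the 8 was 0.81 and that of all genes was -0.01. Stiff IPN replicate 2 was the highest of all libraries for TNC, THBS1, CTGF and CYR61 and the lowest for SPARC, FBN1 and TGM2. It also had the lowest estimated read total, about 13065615. When stiff IPN replicate 1 is left out, that library alone stands for stiff IPN. The 5 calls with the block fell to 0 without soft IPN replicate 2, where 0 of all genes were called, and went up to 8 without stiff IPN replicate 1, where 2688 of all genes were called. They were 3 without stiff col replicate 1 (294 of all genes) and 3 without stiff col replicate 2 (254 of all genes). They were 3 with only the libraries compared (312 of all genes), 1 with no filter (52 of all genes) and 1 with no trend and robust moderation (35 of all genes).

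Stiff col and stiff IPN are both stiff and differ in col-1, rBM, alginate and the calcium that cross-links it. These cannot be told apart in this comparison. The limma fit with the block called 4 of the 8 genes, against 2.47% of all genes (330 of 13369), with SPARC, TGM2 and FBN1 higher in stiff col and TNC lower. Without the block limma called 0 of the 8 and 0.00% of all genes, with 2 of the 8 and 838 of all genes at an unadjusted p under 0.05. The libraries did not overlap for 3 of the 8 genes (POSTN, SPARC and FBN1), near the 30.9% of all genes tested. The median change of the 8 was 0.48, beside 0.00 for all genes. The 4 calls with the block fell to 0 without stiff col replicate 1, where 36 of all genes were called, and went up to 7 without stiff IPN replicate 1, where 2215 of all genes were called. They were 1 with no filter (91 of all genes) and 1 with no trend and robust moderation (121 of all genes). This comparison and that of the 2 IPNs share the stiff IPN libraries, so the values of the 8 genes in them are not independent.

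Stiff col and soft col:rBM differ in stiffness and, going by their names, also in rBM content. The paper also varied col-1 concentration across its gels, and these cannot be told apart. None of the 8 genes was called by limma with or without the block, against 0.00% of all genes in either fit, and 0 of the 8 and 140 of all genes had an unadjusted p under 0.05 without the block. The libraries did not overlap for 1 of the 8, CTGF, against 19.0% of all genes. The median change of the 8 was 0.30, beside 0.00 for all genes, and with all 8 libraries SPARC had the largest change, 1.28. With the block and only the 4 libraries of these gels in the fit, 3 of the 8 genes (SPARC, CTGF and THBS1) and 945 of all genes were called.

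Soft col:rBM and soft IPN are both soft gels with rBM, and they differ in col-1 and in alginate, which cannot be told apart either. With the block limma called 1 of the 8 genes, POSTN, against 0.0224% of all genes (3 of 13369), and without it 0 of the 8 and 0.00% of all genes, with 1 of the 8 and 190 of all genes at an unadjusted p under 0.05. The libraries did not overlap for 2 of the 8, POSTN and CYR61, against 20.7% of all genes. The median change of the 8 was 0.02, beside 0.00 for all genes. The change from soft col:rBM to stiff col, in which rBM content and col-1 concentration may differ beside stiffness, was also set directly against the change from soft to stiff IPN. With all 8 libraries the difference was 2.32 log2 units for SPARC (adjusted p = 0.145 with the block and 1.0 without), -2.03 for POSTN, 1.92 for TGM2, 1.78 for FBN1 and -1.78 for TNC, an order that single libraries changed. With no block the difference for TGM2 was 3.34 and 0.50 when replicates 1 and 2 of stiff IPN were left out in turn, that for TNC was -0.48 and -3.08 when those of stiff col were, and that for FBN1 was 1.10 without stiff col replicate 1. None of the 8 was called by limma in either fit, against 0.0150% of all genes with the block (2 of 13369) and 0.00% without it, while 3 of the 8 and 278 of all genes had an unadjusted p under 0.05 without the block. With the block and without stiff IPN replicate 1, 4 of the 8 (SPARC, TGM2, TNC and CYR61) and 675 of all genes were called.

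Other genes of the same families and of the matrix they assemble into were read from 8 lists of 74 genes, of which 47 were tested. In stiff against soft IPN, 2 of the 47 were called higher and 7 lower by limma with the block, beside 226 higher and 285 lower of all 13369 genes (3.82%). In stiff col against stiff IPN 7 were called higher and 1 lower, beside 134 and 196 of all genes (2.47%). None of the 47 was called in the other comparisons with the block, and 0 in any comparison without it. The median log2 change of the 47 was -0.35 in the IPN comparison and 0.35 in stiff col against stiff IPN.

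Among the periostin paralog, fibulins and other matricellular genes, 10 were tested. With the block, 3 were called lower in stiff than in soft IPN, and the same 3 were called higher in stiff col than in stiff IPN. Of all genes tested, 3.82% and 2.47% were called in these comparisons. Called or not, 8 of the 10 had changes below 0 between the IPNs and 2 above. In stiff col against stiff IPN, 9 had changes above 0 and 1 below. TGFBI, the paralog of periostin and the most abundant of these genes, had 59566 and 59917 normalized counts in soft IPN and 18760 and 15302 in stiff IPN. It had 62653 and 52236 in soft col:rBM and 45896 and 43472 in stiff col. TGFBI thus differed from POSTN, which was higher in stiff than in soft IPN, and its log2 changes were -1.82 between the IPNs and 1.40 between stiff col and stiff IPN (limma adjusted p = 0.00669 and 0.00781 with the block, 0.243 and 0.231 without). FBLN5, an elastic fiber assembly protein, changed by -1.53 and 1.84, and SRPX, a sushi-repeat protein, by -1.31 and 1.50 in the same comparisons (limma adjusted p with the block 0.0472, 0.0331, 0.0254 and 0.0134).

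Of the microfibril and latent TGF-beta genes, 11 were tested. With the block, 3 were called lower in stiff than in soft IPN, beside 3.82% of all genes called. In stiff col against stiff IPN 2 were called higher, beside 2.47% of all genes called. Whether called or not, 8 of the 11 had changes below 0 between the IPNs and 2 above. In stiff col against stiff IPN, 7 had changes above 0 and 4 below. TGFB1, the growth factor that latent complexes hold, had 3406 and 1772 normalized counts in soft IPN, 1457 and 632 in stiff IPN, 4969 and 1601 in soft col:rBM and 3168 and 1275 in stiff col. Its changes in the 2 comparisons were -1.36 and 1.07. LTBP4, a latent TGF-beta binding protein, changed by -1.20 and 0.71, and ADAMTSL4, a fibrillin-associated protein, by -1.40 between the IPNs (limma adjusted p with the block from 0.0131 to 0.0472 for these calls of the list). FBN2, the other fibrillin detected, was not called in any comparison.

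In the transglutaminase family 1 of 3 tested genes was called. TGM5, an epidermal enzyme, had 21 and 18 normalized counts in soft IPN and 96 and 102 in stiff IPN. In soft col:rBM it had 71 and 42 and in stiff col 13 and 22. Unlike TGM2, it was higher in stiff IPN than in either soft IPN (a change of 2.29, limma adjusted p = 0.0317 with the block and 0.410 without) or stiff col (stiff col minus stiff IPN -2.48, limma adjusted p = 0.0235 with the block and 0.232 without).

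Of the receptors for matricellular proteins, 16 of 18 were tested, 2 were called between the IPNs with the block and 1 in stiff col against stiff IPN. ITGA5, the fibronectin receptor subunit, had 41410 and 22332 normalized counts in soft IPN and 21889 and 4560 in stiff IPN. It had 59791 and 15080 in soft col:rBM and 60270 and 13618 in stiff col, and its changes were -1.61 between the IPNs and 1.52 in stiff col against stiff IPN. ITGB6, which pairs with integrin alpha-v to activate latent TGF-beta, was 1.06 higher in stiff than in soft IPN (limma adjusted p = 0.0446 with the block and 0.532 without). In the SPARC family SPOCK1, a testican proteoglycan, was 1.34 higher in stiff col than in stiff IPN with the block (adjusted p = 0.0235), 1 of 3 tested. None of the 2 tested genes of the CCN family, the 2 of the thrombospondin and tenascin families, or the SIBLING family, in which all 4 were at 0 in every library, was called.

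Since stromal cells are the usual source of several of these proteins, markers of other cell types were read in the same libraries. Of 10 fibroblast or other mesenchymal markers, COL1A2 and THY1 were at 0 in all 8 libraries, 6 of the 10 (these included) stayed under 10 normalized counts, and the most abundant was DCN at 526 to 1217. The sum of the list was 1843 and 1424 normalized counts in soft IPN, 1939 and 2050 in stiff IPN, 1607 and 1212 in soft col:rBM and 2428 and 1996 in stiff col. FAP, a cell-surface protease, was higher in stiff than in soft IPN (1.83, limma adjusted p = 0.0254 with the block) and changed by -1.76 in stiff col against stiff IPN, and COL6A3, a collagen VI chain, was 2.92 higher in stiff col than in stiff IPN. Of the 4 markers of this list that were tested, FAP was the only one called between the IPNs. The other 3 had changes below 0 there, and the median change of the 4 was -0.12. In stiff col against stiff IPN FAP and COL6A3 were called and the other 2 were not. PTPRC, which marks leukocytes, was at 0 in all libraries. Among 5 immune markers the sum ran from 525 to 5179 normalized counts, most of it from CD68, a lysosomal protein that other cells also make, which had 4222 and 2092 in soft IPN and 1220 and 324 in stiff IPN. CD68 changed with the block by -2.24 between the IPNs and by 1.72 in stiff col against stiff IPN. The other 2 immune markers tested had changes above 0 between the IPNs and were not called, and the median change of the 3 was 0.14. CLDN5 was at 0 and VWF at 2 or less, and among 6 endothelial markers TEK, a receptor kinase, carried the calls (-3.71 and 3.66 in the same comparisons), with a list sum from 42 to 451. All 3 endothelial markers tested had changes below 0 between the IPNs, with a median of -1.46. In stiff col against stiff IPN 2 had changes above 0 and 1 below, with a median of 1.15.

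All 10 mammary epithelial markers passed the filter and were tested. With the block, KRT17, a keratin of activated basal epithelium, was 1.88 higher in stiff than in soft IPN and CDH1, E-cadherin, was 0.91 higher, while ITGB4, a hemidesmosome integrin, changed by -1.45. In stiff col against stiff IPN, KRT17 changed by -2.57, EPCAM by -1.71 and CDH1 by -1.63, and 4 of the 10 were called lower. The part of these shifts in the results for the matricellular genes was not tested.

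The genes most like each tested gene across the 8 libraries, by Pearson correlation of log2(value + 1), are given as a description, with points that share gel and replicate. TNC was most like PRDX1 (r = 0.992) and ADCK1 (r = 0.988), and THBS1 most like ABHD3 (0.994) and TIMM17A (0.987). SPARC was most like its family member SPOCK1 (0.990) and COL4A2 (0.979). FBN1 followed VPS11 (0.997) and KCNG1 (0.991), and TGM2 followed ARSK (0.994) and LMAN1 (0.993). POSTN was most like CGGBP1 (0.967) and ZNF24 (0.948), CTGF most like ZFYVE27 (0.970) and ZNF271 (0.968), and CYR61 most like AGAP5 (0.960) and KANSL2 (0.952). Within the 8 genes, TNC and THBS1 moved together (r = 0.93), as did SPARC, FBN1 and TGM2 (0.88 for each pair), whereas TNC and TGM2 ran opposite (-0.96). POSTN followed none of the others above 0.38. These values mix the differences between gels with those between replicates.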

How the data were processed

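Per the labels and the study's methods, the authors trimmed 50 bp paired-end reads from TruSeq v2 libraries with Trim Galore 0.3.3, aligned them to hg19 (the methods name Bowtie2 and the submitters' processing notes TopHat2 2.0.13), counted reads per gene with HTSeq and normalized with DESeq2. The gene annotation and strand setting used in counting are not given in the sources used here. The deposited table holds normalized counts, a signal scaled by 1 factor per library and rounded, for 8 libraries of 25369 symbols. The factors were estimated from which whole numbers occur in each column, so the read totals derived from them are estimates. Whether they count reads or pairs cannot be told from the values.

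All genes with at least 10 in at least 2 libraries were fitted with limma 3.58.1 in R 4.3.3 on log2(value + 1), with trend and robust moderation and Benjamini-Hochberg adjustment over all 13369 genes. The fits were tested on simulated data with either no trial difference or 1 that was equal in all gels. That test did not cover trial differences that vary between gels. No exact permutation test of 2 against 2 libraries was used, since its p cannot go below 0.333. The replicate numbers come from the labels. Across genes, differences between replicates correlated at 0.28 to 0.82 in the 6 pairs of gels, so the numbers paired the libraries, though unequally. The lowest value, 0.28, was that of soft with stiff IPN, and the highest that of soft col:rBM with stiff col. The block fits 1 trial difference for all gels, so in the IPN comparison it rests on the weakest pairing. Alternatives covered scaling, pseudocount, filter, libraries fitted, moderation, the block and leaving out each library. Combinations of the block with the other settings were chosen after seeing the data. The genes and lists were chosen with earlier results of these data known. Genes named are the listed genes, up to 3 called genes of largest change per list and comparison, and the 2 most correlated genes. Exon lengths are of the canonical transcript in GENCODE release 44 on hg19. Floors cover counting error only. The values of 1 epithelial marker, and the list sum that holds it, are not reported here.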

Additional observations from a re-analysis of the deposited data

How the results depend on the processing

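All 40 log2 changes (8 genes in 5 comparisons) kept their direction under the other scalings, pseudocounts, filters, moderation and fits, and no scaling moved the median of all genes by more than 0.05. Leaving out a library kept the direction of 24 of the 40. In stiff against soft IPN the others ranged over such fits, with and without the block, from -0.01 to 1.41 for CYR61. In stiff col against stiff IPN they ranged from -2.26 to 0.10 for CTGF and from -1.05 to 0.38 for CYR61. In stiff col against soft col:rBM they ranged from -0.70 to 1.90 for TNC, -0.61 to 0.71 for POSTN, -0.41 to 0.40 for CYR61, -0.47 to 0.89 for FBN1 and -1.04 to 1.38 for TGM2. In soft col:rBM against soft IPN they ranged from -1.56 to 0.63 for TNC, -0.20 to 0.26 for THBS1, -0.86 to 0.55 for SPARC, -1.19 to 0.48 for CTGF, -0.03 to 0.78 for CYR61, -0.38 to 0.65 for FBN1 and -1.20 to 1.22 for TGM2. The difference between the change from soft col:rBM to stiff col and that from soft to stiff IPN ranged from -1.90 to 0.46 for CTGF. A library left alone in its gel was assumed to vary like the others.

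In the order stiff against soft IPN, stiff col against stiff IPN, stiff col against soft col:rBM, soft col:rBM against soft IPN and the difference between the changes of the collagen gels and of the IPNs, limma called 0 genes in each without the block (1245, 838, 140, 190 and 278 at an unadjusted p under 0.05), and 511, 330, 0, 3 and 2 with the replicate block, of which 5, 4, 0, 1 and 0 were among the 8 genes. The unblocked counts were 34, 51, 41, 26 and 72 with no filter, 2 in the first comparison with only the libraries compared, 4 in the second with pseudocount 5 and 0 to 5 in the second without 1 library. With the block and no filter the counts were 52, 91, 41, 26 and 74. With the block and only the libraries compared they were 312 in the first, 945 in the third and 45 in the fourth, and with the block and no trend or robust moderation 35, 121, 0 in the fourth and 0 in the fifth. The fourth count with the block was 0 under both rescalings, both pseudocounts and the stricter filter. Without 1 library and with the block the counts ran from 0 to 2688, 36 to 2215, 0 to 30, 0 to 21 and 0 to 675.

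Of the 8 genes, the block with no filter called 1 in the first comparison, 1 in the second and 0 in the fourth, as did the block with no trend or robust moderation. The block with only the libraries compared called 3 in the first and 3 in the third. The fourth count of 1 was 0 under both rescalings, both pseudocounts and the stricter filter with the block. Without 1 library and with the block the numbers ran from 0 to 8, 0 to 7, 0 to 1 in the fourth and 0 to 4 in the fifth. The causes of these shifts were not tested. Depth limits SPP1 and THBS2, which had few reads in any library.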
